A study of Mus musculus with 16 samples.

Results

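The FGF ligands and receptors examined here were 10 genes, chosen by symbol, with earlier results of these data known. They were the ligands *Fgf2*, *Fgf7*, *Fgf8*, *Fgf9*, *Fgf10* and *Fgf18*, and the receptors *Fgfr1*, *Fgfr2*, *Fgfr3* and *Fgfr4*. All 10 were found, each once, among the 35983 genes of the expression table. mRNA had been sequenced from whole mouse testes on a mixed 129Sv and C57Bl/6J background, in 4 groups of 4 samples, to ask what loss of *Lrh1* (official symbol *Nr5a2*, a nuclear receptor gene) does in the germ line and in Sertoli cells. The germ cell mutants were taken at postnatal day 1 (P1) and carried 1 floxed allele of *Lrh1*, 1 null allele and *Nanos3-Cre*, which acts in germ cells, and their P1 controls carried the same floxed and null alleles without Cre. Thus every P1 animal, controls included, lacked 1 working copy of *Lrh1* in all cells. The Sertoli cell mutants were taken at P3 and carried 2 floxed alleles with *Dhh-Cre*, which acts in fetal Sertoli cells, and their P3 controls carried 2 floxed alleles without Cre.

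FGFs are secreted proteins that bind, together with heparan sulfate, to receptor tyrosine kinases on nearby cells. The activated receptor signals through the RAS-MAPK cascade and through phospholipase C gamma, and the pathway turns on its own inhibitors, such as the Sprouty proteins. In the fetal mouse testis, *Fgf9* acting through *Fgfr2* is needed for the Sertoli cell fate, and FGF2 is a standard additive for the culture of spermatogonial stem cells.

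The values are the authors' mean FPKM of each group (fragments per kilobase of exon, scaled for library depth). FPKM divides by gene length, so levels can be compared between genes. Values of single samples were not part of the tables analysed, so no mean has an SD here, no difference was tested across samples here, and every comparison below describes 2 means of 4 samples each. A gene's mean FPKM, its exon length and the authors' mean normalized counts together gave the number of fragments behind each mean, in sums per sample of about 10710000 normalized counts in P1 mutants and 10610000 in P1 controls, and about 12070000 in P3 mutants and 11890000 in P3 controls. From these counts a 95% interval of each ratio (exact binomial) was made, which covers counting error only and not the spread between samples. By the ratio of counts to FPKM, the 2 ages appear to have been normalized separately, although the sources do not say so. They also differ in genotype, so P1 and P3 levels are set side by side without a ratio, except as 1 of 3 axes in the search for like patterns at the end. *Nr5a2* itself averaged 0.491 FPKM in P1 mutants against 0.764 FPKM in P1 controls, and 0.609 FPKM in P3 mutants against 1.15 FPKM in P3 controls. In whole testis RNA, fewer cells of a type and less RNA per cell cannot be told apart, for this gene and for all others.

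The promoters of *Fgf7* and *Fgfr2*, which had the highest mutant-to-control ratios at P3, and of *Fgf18*, the sole gene of the set with a lower mean there, are shown for reference. The RefSeq promoter windows used here (GRCm38.p6) covered 8 of the 10 genes, each with 250 bases before and 50 bases from the start site on, and the capitals mark those last 50 bases.
Fgf7, chr2:126034408-126034707, plus strand: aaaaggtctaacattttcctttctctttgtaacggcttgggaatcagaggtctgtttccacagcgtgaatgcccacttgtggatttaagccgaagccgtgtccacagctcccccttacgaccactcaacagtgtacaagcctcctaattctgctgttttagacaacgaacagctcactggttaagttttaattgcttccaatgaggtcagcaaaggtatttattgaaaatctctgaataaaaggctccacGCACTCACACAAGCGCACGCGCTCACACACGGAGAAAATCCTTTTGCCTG
Fgfr2, chr7:130266759-130267058, minus strand: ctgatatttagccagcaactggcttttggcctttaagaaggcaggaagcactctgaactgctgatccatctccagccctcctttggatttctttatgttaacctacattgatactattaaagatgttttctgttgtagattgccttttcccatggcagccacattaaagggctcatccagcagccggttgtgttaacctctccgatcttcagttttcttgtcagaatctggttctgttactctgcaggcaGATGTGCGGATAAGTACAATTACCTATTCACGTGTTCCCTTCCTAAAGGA
Fgf18, chr11:33147351-33147650, minus strand: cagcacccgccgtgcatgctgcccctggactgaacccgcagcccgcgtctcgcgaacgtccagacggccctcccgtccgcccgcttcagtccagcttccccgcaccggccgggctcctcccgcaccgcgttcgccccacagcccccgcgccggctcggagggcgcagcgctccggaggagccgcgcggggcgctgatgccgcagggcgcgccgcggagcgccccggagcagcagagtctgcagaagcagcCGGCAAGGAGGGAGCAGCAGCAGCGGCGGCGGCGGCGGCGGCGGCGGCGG
The *Fgf18* window had a GC content of 78.7%, against 45.7% for *Fgf7* and 43.7% for *Fgfr2*, and the median over all windows was 52.7%. The other windows had 42.7% (*Fgf9*), 60.7% (*Fgf10*), 62.7% (*Fgf2*), 65.3% (*Fgfr4*), and 69.7% and 73.0% for the 2 start sites of *Fgfr3*. The extended half-site bound by NR5A receptors was searched on both strands as CAAGGTCA and, more loosely, as CAAGGNCA, which includes the first form. None of the 9 windows of the 8 genes held either, while 1.56% and 6.71% of all 32851 windows did. This says only that these letters are not in these windows.

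At P3, 8 of the 9 genes measurable above a low-level limit had a higher mean in *Dhh-Cre* mutants than in controls, and *Fgf18* had a lower one. The limit was an average of both group means of at least 0.5 FPKM, which *Fgf8* missed at both ages. Of all 16923 genes over this limit at P3, 50.2% had a higher mean in mutants and 49.8% a lower one. The median log2 ratio of the 9 genes, with 0.1 FPKM added to each mean, was 0.96, with a range of -0.42 to 1.57, and that of all genes was 0.00. With 1 FPKM added in place of 0.1 it was 0.61. Past 2-fold on this scale were 3 genes, *Fgf7*, *Fgfr2* and *Fgf2*, all higher, against 4.75% of all genes at least 2-fold higher and 3.58% at least 2-fold lower. Just under 2-fold lay *Fgfr3* and *Fgf9*, at 1.96-fold and 1.95-fold with 0.1 added, although the plain ratios of their means were 2.06 and 2.05, and with 0.01 FPKM added 5 genes were past 2-fold.

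**Figure D1:**
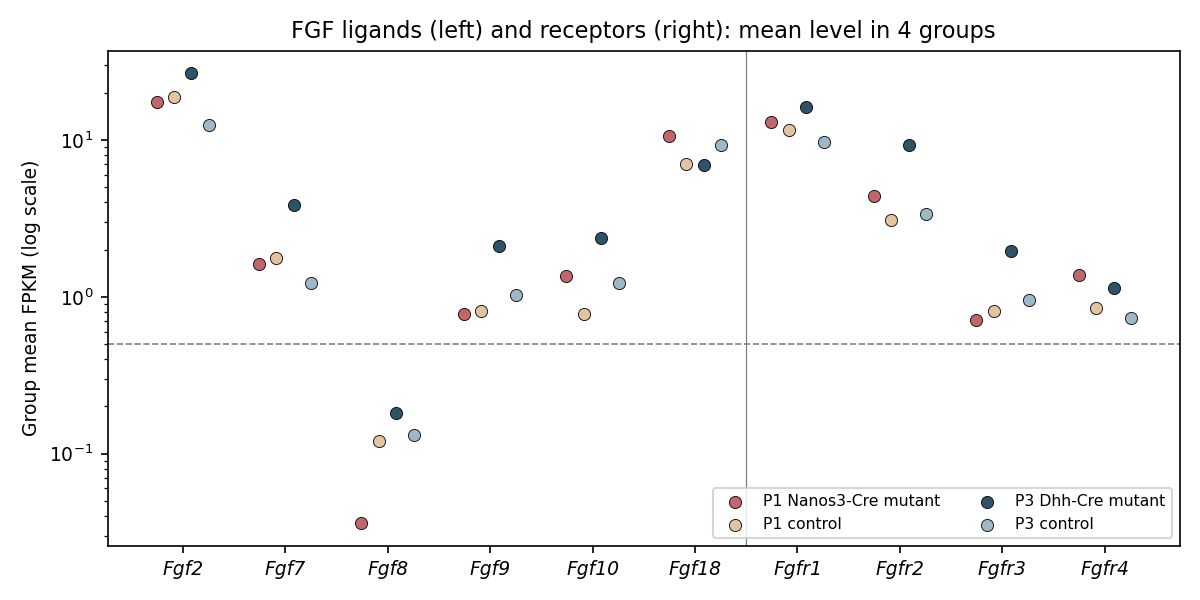
Mean FPKM (log axis) of the 6 FGF ligands and 4 receptors in the 4 groups, one point per group mean of 4 samples, without error bars since the values are group means. The dashed line is the limit of 0.5 FPKM. *Fgf2* and *Fgfr1* are the highest 2 in each group, *Fgf8* sits below the limit, and the P3 mutant point lies above the P3 control point for every gene but *Fgf18*.

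*Fgf2* was the most abundant ligand in every group. It averaged 26.7 FPKM in P3 mutants against 12.5 FPKM in P3 controls, a ratio of 2.14 (counting interval 2.06 to 2.22), from about 2179 and 1021 counts per sample. At P1 it averaged 17.6 FPKM in mutants against 18.8 FPKM in controls, a ratio of 0.934 (0.899 to 0.971). The interval thus lies just below 1 at P1 and above 2 at P3. Of all genes over the limit at P3, 3.75% had a ratio at least as high. This share and the like ones below compare ratios with 0.1 FPKM added to each mean, not the plain ratios. *Fgf2* (ENSMUSG00000037225) lies on chromosome 3 from 37348346 to 37410108 on the plus strand, and all positions of genes here are those of GENCODE M21 on GRCm38. Its locus overlaps *Nudt6* on the opposite strand, which averaged 3.73 FPKM in P3 mutants against 3.46 FPKM in P3 controls, and the authors counted reads by strand.

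*Fgf7*, which encodes a ligand that mesenchyme makes for the epithelial splice form of FGFR2, had the largest ratio of the set at P3. Its mean was 3.86 FPKM in P3 mutants against 1.23 FPKM in P3 controls, a ratio of 3.14 (2.66 to 3.71), from about 151 and 48.2 counts per sample. At P1 it was 1.61 FPKM in mutants against 1.77 FPKM in controls, a ratio of 0.909 (0.754 to 1.09), so the counting error alone spans 1. At P3, 0.934% of all genes had a ratio at least as high. *Fgf7* (ENSMUSG00000027208) lies on chromosome 2 from 126034658 to 126091185 on the plus strand.

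*Fgf10*, the other mesenchymal ligand of that splice form and a gene needed for limb and lung outgrowth, was the ligand with a higher mean in mutants at both ages by similar ratios. It averaged 1.36 FPKM in P1 mutants against 0.774 FPKM in P1 controls, a ratio of 1.76 (1.44 to 2.16), and 2.38 FPKM in P3 mutants against 1.22 FPKM in P3 controls, a ratio of 1.95 (1.68 to 2.26). The P1 ratio was the largest of the set at that age, and 1.89% of all genes at P1 had one at least as high. The antisense transcript *Gm16263*, which overlaps the locus on the other strand and was looked up for that reason, had means in the same direction, 0.595 FPKM in P1 mutants against 0.268 FPKM in P1 controls and 0.975 FPKM in P3 mutants against 0.371 FPKM in P3 controls. *Fgf10* (ENSMUSG00000021732) lies on chromosome 13 from 118669791 to 118792115 on the plus strand.

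*Fgf9*, the ligand that fetal mouse Sertoli cells make, was at a low level in all groups. Its mean was 2.10 FPKM in P3 mutants against 1.03 FPKM in P3 controls, a ratio of 2.05 (1.75 to 2.41), from about 118 and 57.6 counts per sample. At P1 it was 0.776 FPKM in mutants against 0.812 FPKM in controls, a ratio of 0.956 (0.763 to 1.20). Its higher mean in P3 mutants stood beside lower means of 12 of 12 Sertoli cell markers, where 49.8% of all genes had a lower mean. That marker list was chosen with earlier results of these data known. *Fgf9* (ENSMUSG00000021974) lies on chromosome 14 from 58070547 to 58112720 on the plus strand.

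*Fgf18*, best known as a ligand in bone, cartilage and lung, was the second most abundant ligand in every group and differed in opposite directions in the 2 comparisons. Its mean was 10.6 FPKM in P1 mutants against 7.02 FPKM in P1 controls, a ratio of 1.51 (1.32 to 1.73). It was 6.91 FPKM in P3 mutants against 9.27 FPKM in P3 controls, a ratio of 0.745 (0.651 to 0.849), from about 98.8 and 133 counts per sample. At P1, 3.18% of all genes had a ratio at least as high, and at P3, 12.9% had one at least as low. The difference between the 2 comparisons was not tested. *Fgf18* (ENSMUSG00000057967) lies on chromosome 11 from 33117430 to 33147400 on the minus strand.

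*Fgf8*, a patterning ligand of the early embryo, was barely measured. It averaged 0.036 FPKM in P1 mutants against 0.120 FPKM in P1 controls, and 0.181 FPKM in P3 mutants against 0.132 FPKM in P3 controls. These means rest on about 0.521 and 1.74 counts per sample at P1 and on 2.94 and 2.15 at P3. The counting intervals of its ratio, 0.029 to 1.5 at P1 and 0.516 to 3.58 at P3, include 1, so no difference was detectable at this depth. *Fgf8* (ENSMUSG00000025219) lies on chromosome 19 from 45736798 to 45742915 on the minus strand.

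Among the receptors, *Fgfr1*, the most widely expressed one, had the highest mean in every group. It averaged 16.3 FPKM in P3 mutants against 9.75 FPKM in P3 controls, a ratio of 1.67 (1.61 to 1.73), and 13.0 FPKM in P1 mutants against 11.7 FPKM in P1 controls, a ratio of 1.12 (1.07 to 1.16). With about 1934 and 1160 counts per sample at P3 it was among the best counted genes of the set. *Fgfr1* (ENSMUSG00000031565) lies on chromosome 8 from 25513654 to 25575718 on the plus strand.

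*Fgfr2*, the receptor of FGF9 in the fetal mouse testis, had the largest ratio of the receptors at P3. Its mean was 9.23 FPKM in P3 mutants against 3.38 FPKM in P3 controls, a ratio of 2.73 (2.58 to 2.89), from about 1149 and 421 counts per sample. At P1 it was 4.39 FPKM in mutants against 3.07 FPKM in controls, a ratio of 1.43 (1.34 to 1.54). Of all genes, 1.51% at P3 and 4.03% at P1 had a ratio at least as high. *Fgfr2* (ENSMUSG00000030849) is annotated on chromosome 7 from 130162451 to 133123350 on the minus strand, a span that includes other genes and runs far upstream of the start site shown above. Some of these genes lie on the same strand, such as *Oat* (52.9 FPKM in P3 mutants against 44.7 FPKM in P3 controls) and *Ate1* (11.2 FPKM against 11.6 FPKM). Both were named after their values were seen, and whether their exons overlap those of *Fgfr2* was not checked. The *Fgfr2* value is for the whole gene, so the epithelial splice form, which binds FGF7 and FGF10, and the mesenchymal one, which binds FGF9, are not told apart.

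*Fgfr3*, which marks undifferentiated spermatogonia in humans, and *Fgfr4*, known as the liver receptor in bile acid control, were the low receptors. *Fgfr3* averaged 1.96 FPKM in P3 mutants against 0.955 FPKM in P3 controls, a ratio of 2.06 (1.80 to 2.36), and 0.715 FPKM in P1 mutants against 0.809 FPKM in P1 controls, a ratio of 0.884 (0.733 to 1.06). *Fgfr4* averaged 1.14 FPKM in P3 mutants against 0.729 FPKM in P3 controls, a ratio of 1.56 (1.24 to 1.98), and 1.38 FPKM in P1 mutants against 0.847 FPKM in P1 controls, a ratio of 1.63 (1.30 to 2.03). *Fgfr4* thus had a higher mean in mutants at both ages, as had *Fgf10*, *Fgfr1* and *Fgfr2*. *Fgfr3* had it at P3 only, without a test of that difference. *Fgfr3* (ENSMUSG00000054252) lies on chromosome 5 from 33721674 to 33737068, and *Fgfr4* (ENSMUSG00000005320) on chromosome 13 from 55152640 to 55168759, both on the plus strand.

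At P1, the 9 genes over the limit were split, with 5 higher and 4 lower means in *Nanos3-Cre* mutants, where 54.5% of all 16121 genes had a higher mean and 45.4% a lower one. Higher were *Fgf10*, *Fgfr4*, *Fgf18*, *Fgfr2* and *Fgfr1*, and lower were *Fgfr3*, *Fgf7*, *Fgf2* and *Fgf9*. Their median log2 ratio was 0.16, with a range of -0.16 to 0.74, and that of all genes was 0.02. This P1 median depended on the limit, at 0.05 with none and 0.50 with one of 1 FPKM. None of the 9 was past 2-fold, a distance that 1.15% of all genes reached upward and 1.39% downward.

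**Figure D2:**
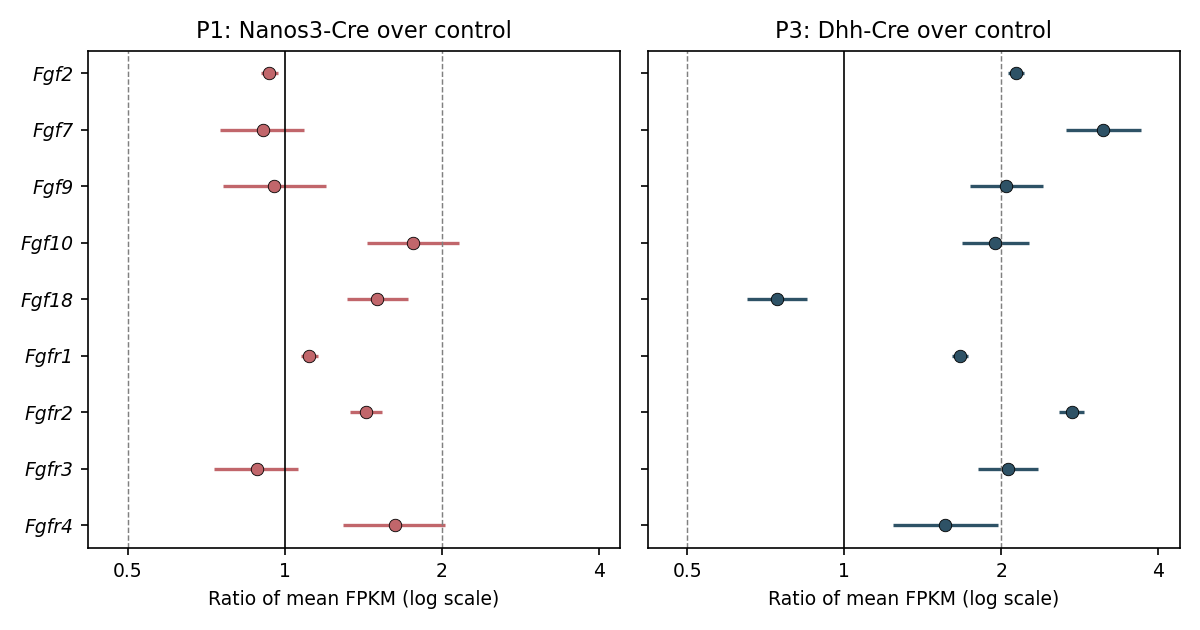
Ratio of mean FPKM, mutant over control (log axis), of the 9 genes over the limit at P1 (left) and P3 (right). Bars are 95% intervals of the ratio from counting error only, the solid line is a ratio of 1 and the dashed lines are 2-fold. At P3 all points but *Fgf18* lie right of 1, with *Fgf7* at 3.14 and *Fgfr2* at 2.73, and at P1 they lie on both sides, up to 1.76 for *Fgf10*.

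The make-up of the set also differed between P3 mutants and controls. *Fgf2* held 63.3% of the summed FPKM of the 6 ligands in P3 mutants against 49.2% in P3 controls, and *Fgf18* held 16.4% against 36.5%. At P1 the shift ran the other way, with *Fgf2* at 55.1% in mutants against 64.2% in controls and *Fgf18* at 33.1% against 23.9%. *Fgf2*, *Fgf18* and *Fgf7* held the first 3 places among the ligands in all 4 groups and *Fgf8* the last, although the means carry no error between samples by which neighbours could be separated. In P3 controls *Fgf7* and *Fgf10*, at 1.23 and 1.22 FPKM, were nearly level.

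Among the receptors, *Fgfr2* held 32.3% of the summed FPKM in P3 mutants against 22.8% in P3 controls, and *Fgfr1* held 56.9% against 65.8%. At P1 *Fgfr2* held 22.5% in mutants against 18.7% in controls, and *Fgfr1* 66.7% against 71.2%. The order *Fgfr1*, *Fgfr2* held in all 4 groups, while the third place was *Fgfr4* in both P1 groups and *Fgfr3* in both P3 groups. Summed, the 4 receptors came to 28.6 FPKM in P3 mutants against 14.8 FPKM in P3 controls, and the 6 ligands to 42.1 FPKM against 25.4 FPKM. The P1 sums were closer, 19.5 FPKM in mutants against 16.4 FPKM in controls for the receptors and 32.0 FPKM against 29.3 FPKM for the ligands.

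**Figure D3:**
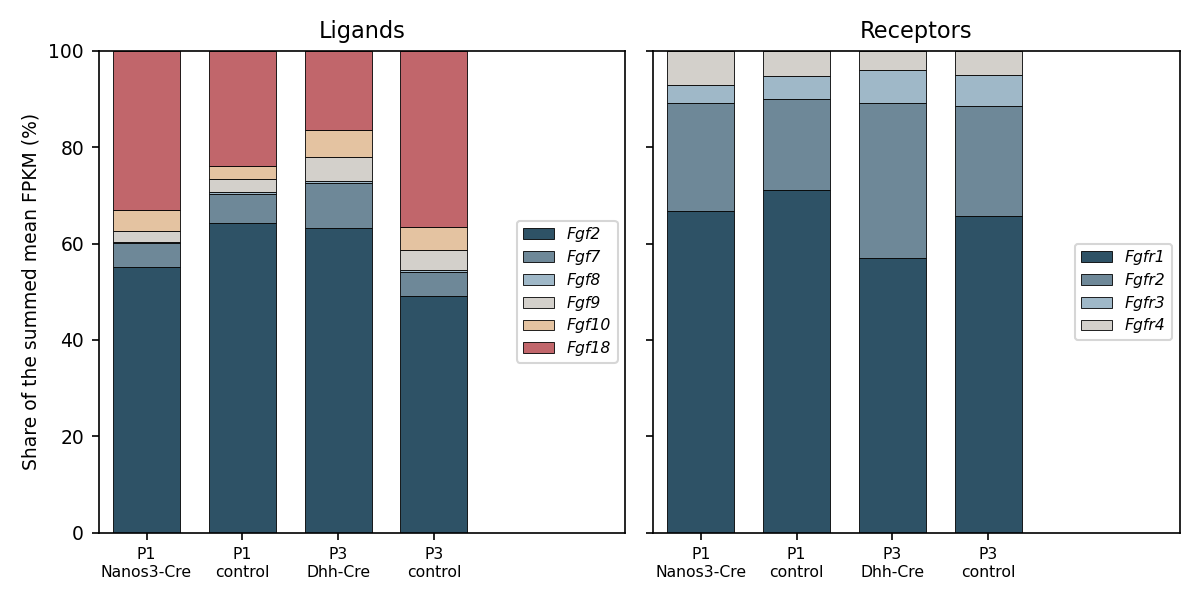
Share of each gene in the summed mean FPKM of the 6 ligands (left) and of the 4 receptors (right) in the 4 groups, in percent. The *Fgf18* share is 16.4% in P3 mutants against 36.5% in P3 controls, and the *Fgfr2* share is 32.3% against 22.8%.

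The remaining genes of the pathway were counted in 7 lists of 87 genes in all. Of the other secreted FGFs, 1 of 9 was over the limit at P3, *Fgf1*, which encodes a ligand of all FGF receptors. It averaged 8.73 FPKM in P3 mutants against 4.10 FPKM in P3 controls (log2 ratio 1.07), and 2.87 FPKM in P1 mutants against 2.22 FPKM in P1 controls. None of 6 endocrine FGF and Klotho genes was over the limit in either comparison, with a highest mean of 0.461 FPKM. Of the 4 intracellular FGF homologous factors, which bind sodium channels and not receptors, 3 were over the limit at P3, and *Fgf13* averaged 3.77 FPKM in P3 mutants against 8.41 FPKM in P3 controls (log2 ratio -1.14). *Fgf11* was also lower in P3 mutants, at 10.4 FPKM against 15.3 FPKM, and *Fgf12* was at 1.33 FPKM against 1.13 FPKM.

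Of 10 membrane partners and binding proteins, 6 had a higher and 4 a lower mean in P3 mutants, with a median log2 ratio of 0.51. Among all genes over the limit at P3, 50.2% had a higher and 49.8% a lower mean. *Fgfbp1*, which releases FGFs from the matrix, averaged 2.38 FPKM in P3 mutants against 0.909 FPKM in P3 controls, and the adhesion gene *Ncam1* 16.6 FPKM against 7.24 FPKM. *Flrt1*, at 5.64 FPKM against 12.7 FPKM, and N-cadherin (*Cdh2*), at 2.16 FPKM against 4.08 FPKM, had lower means in P3 mutants. *Fgfrl1*, a receptor-like protein without a kinase, was at 14.5 FPKM in P3 mutants against 15.9 FPKM in P3 controls, and at 21.5 FPKM in P1 mutants against 16.1 FPKM in P1 controls.

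Of 22 heparan sulfate proteoglycans and their enzymes, 21 were over the limit at P3, 14 higher and 7 lower in mutants, with a median of 0.18. Among all genes, 50.2% were higher and 49.8% lower. *Sulf1* and *Sulf2*, which remove sulfate groups from heparan sulfate outside the cell, had higher means in P3 mutants, at 16.0 FPKM against 6.59 FPKM and 71.0 FPKM against 38.0 FPKM. The proteoglycan genes *Gpc6*, at 8.65 FPKM against 3.83 FPKM, and *Sdc1*, at 23.5 FPKM against 12.4 FPKM, were likewise higher in P3 mutants. The most abundant ones differed in direction, with *Gpc3* at 175 FPKM in P3 mutants against 106 FPKM in P3 controls and *Sdc4* at 89.3 FPKM against 130 FPKM.

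In the lists downstream of the receptors, most genes had a lower mean in P3 mutants, and any relation to the receptor levels was not tested. Of 19 signal transducers, 5 had a higher and 14 a lower mean in P3 mutants, none past 2-fold, with a median of -0.06. *Shc1*, an adaptor, was the farthest upward, at 37.1 FPKM in P3 mutants against 26.0 FPKM in P3 controls, and *Sos1*, a RAS activator, the farthest downward, at 6.93 FPKM against 9.76 FPKM. The kinase gene *Mapk3* was at 53.3 FPKM in P3 mutants against 48.1 FPKM in P3 controls. Of 17 feedback inhibitors and target genes, 16 were over the limit, 2 higher and 14 lower in P3 mutants, none past 2-fold, with a median of -0.23. Lower means were those of *Spry4*, a Sprouty inhibitor (5.21 FPKM in P3 mutants against 8.37 FPKM in P3 controls), of the transcription factors *Etv1* (3.55 FPKM against 5.69 FPKM) and *Etv5* (14.1 FPKM against 21.4 FPKM), and of *Dusp6*, an ERK phosphatase (32.9 FPKM against 44.7 FPKM). The 2 higher ones were *Spry2* and *Fos*, named after their values were seen. At P1 the same list had 12 higher and 4 lower means in mutants with a median of 0.15, where 54.5% of all genes were higher and 45.4% lower. The farthest from 0 in the list were *Etv4* (1.70 FPKM in P1 mutants against 2.72 FPKM in P1 controls) and *Dusp4* (2.96 FPKM against 2.06 FPKM). These genes also answer to other growth factors. Over all 7 lists, 29 of 70 genes over the limit had a higher mean in P3 mutants and 41 a lower one, with a median of -0.06. Among all genes over the limit at P3, 50.2% had a higher and 49.8% a lower mean, with a median of 0.00.

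**Figure D4:**
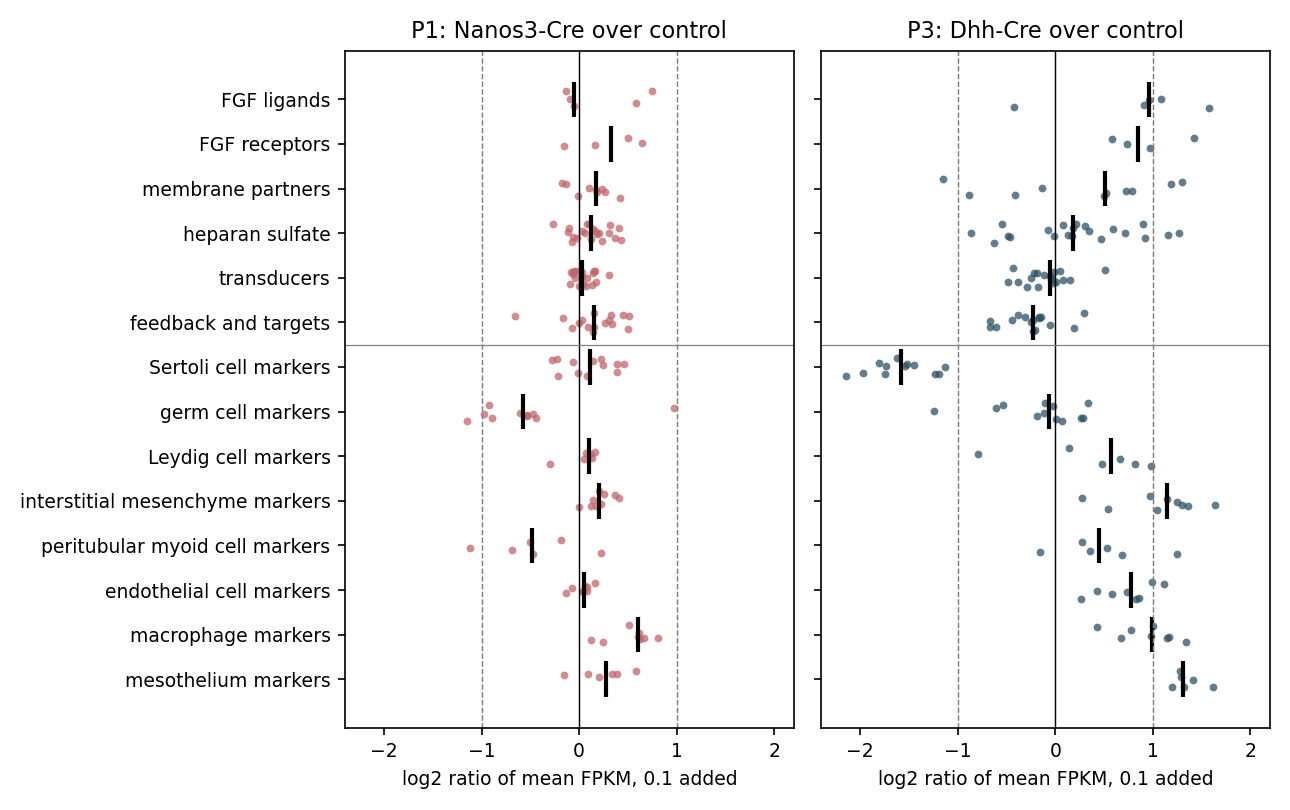
Mutant over control ratio of mean FPKM (log2, with 0.1 FPKM added) for FGF ligands and receptors, 4 lists of other pathway genes and, under the line, 8 lists of cell type markers, at P1 (left) and P3 (right). Each point is 1 gene over the limit, black bars are list medians and dashed lines are 2-fold. At P3 the medians are -1.58 for Sertoli cell markers, 1.14 for interstitial mesenchyme markers and -0.23 for feedback and target genes.

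Markers of several cell types differed alongside the FGF genes at P3, and their part in these results was not tested. The marker lists were chosen with earlier results of these data known. Of all genes over the limit at P3, 50.2% had a higher and 49.8% a lower mean in mutants. Of 12 Sertoli cell markers, 12 had a lower mean in P3 mutants, with a summed level of 640 FPKM against 1869 FPKM in P3 controls, and of 9 interstitial mesenchyme markers, 9 had a higher one, at 2399 FPKM against 1084 FPKM, a ratio of 2.21. The single mesenchyme markers had ratios of 1.21 (*Tcf21*) to 3.12 (*Lum*), both named after their values were seen, and the 8 FGF genes with a higher mean in P3 mutants had ratios of 1.56 (*Fgfr4*) to 3.14 (*Fgf7*). Also higher in P3 mutants were 6 of 6 mesothelium markers (103 FPKM against 39.4 FPKM), 8 of 8 macrophage markers over the limit (120 FPKM against 55.1 FPKM over the whole list of 9), 8 of 8 endothelial markers (73.3 FPKM against 48.5 FPKM), and 5 of 6 markers each of Leydig cells (545 FPKM against 333 FPKM) and peritubular myoid cells (300.4 FPKM against 223.6 FPKM). The 12 germ cell markers came to 126 FPKM in P3 mutants against 132 FPKM in P3 controls. Of these, 5 had a higher and 7 a lower mean in P3 mutants, and 1 was at least 2-fold lower.

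Of all genes over the limit at P1, 54.5% had a higher and 45.4% a lower mean in mutants. At P1 the germ cell markers came to 27.4 FPKM summed in mutants against 46.5 FPKM in controls. Of 10 over the limit, 9 were lower, the exception being *Nanos3*, named after its value was seen. Macrophage markers had higher means in P1 mutants for 8 of 8 genes (88.9 FPKM against 58.3 FPKM over the list of 9), and peritubular myoid markers lower ones for 5 of 6 (186 FPKM against 234 FPKM). Sertoli cell markers came to 1891 FPKM in P1 mutants against 1709 FPKM in P1 controls. Neutrophil markers came to 167 FPKM in P1 mutants against 50.5 FPKM in P1 controls and to 5.62 FPKM in P3 mutants against 70.7 FPKM in P3 controls, and which samples carried them cannot be seen in group means. No marker of any of these lists was at 0 in any group, the testis cell types included.

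By pattern over the 4 group means, the gene nearest to each FGF gene was sought among the 142 pathway and marker genes measured at both ages. The distance was taken over the P1 log2 ratio, the P3 log2 ratio and the log2 level of P3 controls over P1 controls, so it describes 4 means and has no error. The last of these crosses 2 ages that appear to have been normalized separately. Without it, an alternative chosen after seeing the data, the nearest gene was the same for 5 of 9 genes. These were *Fgf2*, *Fgf7*, *Fgf9*, *Fgf10* and *Fgf18*. Each of the 4 receptors had another one: *Flrt2* for *Fgfr1*, *Gpc6* for *Fgfr3*, and the macrophage markers *C1qa* for *Fgfr2* and *Mrc1* for *Fgfr4*. Nearest to *Fgfr1* was *Nrp1* (distance 0.06), to *Fgf2* *Gpc6* (0.103), to *Fgf18* *Dusp4* (0.182) and to *Fgfr2* the mesenchyme marker *Dpt* (0.205). The endothelial marker *Kdr* was nearest to both *Fgf9* (0.206) and *Fgfr3* (0.217), the macrophage marker *Csf1r* to *Fgf10* (0.227), the mesothelium marker *Muc16* to *Fgf7* (0.327) and *Fgfbp3* to *Fgfr4* (0.406).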

How the data were processed

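Stranded mRNA libraries were made from 16 whole testis samples, 4 per group, with 400 ng of RNA in each P3 sample and, in each P1 group, 500 ng in 3 samples and 400 ng in 1. Per the labels and the methods, reads were trimmed by the authors (Trim Galore 0.6.0, cutadapt 1.18), mapped with STAR 2.7.2a to GRCm38, counted them by strand on GENCODE M25 and compared groups with DESeq2. For 35983 genes the authors deposited 4 FPKM columns, each a group mean. Their tables of called genes hold a log2 fold change and p-values, which were not used, and a mean normalized count over samples, deposited as a signal per gene. That mean count, divided by the mean FPKM of both groups of an age and the exon length, gave 10.72 for 4 of 4 genes at P1 and 12.05 within 1% for 683 of 699 at P3, so each age had its own factor. The factor at P1 rests on 4 genes.

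The planned tests on values per sample could not be run on group means. Log2 ratios, mutant over control, took 0.1 FPKM added to each mean, which understates differences of low genes, and genes with an average of both means of at least 0.5 FPKM. Gene positions and exon lengths came from GENCODE M21, which held 99.7% of the gene IDs. The members and lists were chosen with earlier results of these data known. Named were all members, the NR5A gene deleted, and in each list up to 4 genes with the largest log2 ratio at P3, up to 2 at P1 and up to 2 with the highest mean, together with the nearest genes by pattern. Some genes that this rule names are not reported here. Marker lists are given by their sums. The alternatives were other pseudocounts, limits, folds and scalings. The scripts, tested on simulated data with counting error only and no spread between samples, used scipy 1.17.1, pandas 2.3.3, numpy 2.4.6, matplotlib 3.10.9 and Python 3.11.15.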

Additional observations from a re-analysis of the deposited data

How the results depend on the processing

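No paired analysis was possible because the values are group means, and for the same reason no sample could be left out, so a single unusual sample cannot be seen. The log2 ratios of the 10 FGF genes kept their sign, with 0 of 80 values changing it. Other pseudocounts, added alike to both means, cannot change a sign, so those values are no check of it. Scaling to equal totals and subtracting the median of all genes can, but both moved the ratios little. The P1 ratio nearest to 0, that of *Fgf9*, went from -0.058 to -0.014 with equal totals. Counts past 2-fold depended on the pseudocount and the fold: at P3 the count of higher genes was 3, but 5 with 0.01 FPKM added (*Fgf9* and *Fgfr3* joining, against 5.56% of all genes higher), 7 at 1.5-fold (against 12.5% of all genes higher) and 0 at 3-fold, where *Fgf7* had a plain ratio of 3.14 and 2.98 with 0.1 added. At P1 it was 0, but 2 at 1.5-fold (against 3.17% of all genes higher). With 1 FPKM added the P3 median was 0.61, not 0.96. The P1 median of 0.16 was 0.05 with no limit on low values and 0.50 with a limit of 1 FPKM. Without a limit, the median of the other secreted FGFs at P3 was -0.093, against 1.07 for *Fgf1* alone. In the search for like patterns, 5 of 9 nearest genes were the same without the axis across ages. Scaling the groups to equal totals put the median of all genes at 0.07 at P1 and -0.05 at P3. Depth limits *Fgf8* most, at under 3 counts per sample.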
